A study of Mus musculus with 4 samples.

Results

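The replication-dependent histone genes lie in clusters named Hist1, Hist2, Hist3 and Hist4 in the gene names used here, and they code for the linker histone H1 and the core histones H2A, H2B, H3 and H4. All symbols of the count table that begin with Hist1h, Hist2h, Hist3h or Hist4h were taken, which gave 69 of 27998 genes: 6 for H1, 19 for H2A, 19 for H2B, 12 for H3 and 13 for H4. They were counted in mouse acute myeloid leukaemia cells driven by the fusion oncogene MLL-AF9, by single-cell RNA sequencing with the Chromium 3′ V2 kit. The design holds 4 samples with 1 library each: Hif-1a KO with chemotherapy, Hif-1a wt with chemotherapy, Hif-1a KO with PBS and Hif-1a wt with PBS. Every leukaemia was started from c-Kit+ marrow cells of Hif-1alphaLox/Lox; CreERT2 mice that received an MLL-AF9 retrovirus and grew first in wild type recipients, so cells of both genotype labels carry the floxed gene and the inducible Cre. After transplantation of these primary leukaemias, mice received tamoxifen (1 mg) or its vehicle over 5 days from day 10, and then 100 mg/kg cytarabine for 5 days with 3 mg/kg doxorubicin for 3 days, or PBS. GFP+ marrow cells of C57BL6 mice aged 11 weeks were sorted 3 days after the last dose. The sources used here do not give how many primary leukaemias or recipients stand behind a library.

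Replication-dependent histone mRNAs are the known exception among the messenger RNAs of animal cells: they end in a short stem-loop, bound by the stem-loop binding protein Slbp, and carry no poly(A) tail. They are made in S phase, when new DNA is packed into nucleosomes, and are degraded when replication ends. Some of these genes also give transcripts with a poly(A) tail, from signals downstream of the stem-loop. The 3′ method starts its copies with an oligo-dT primer at poly(A) stretches, so the counts below describe what such a primer captured from these genes and not their total mRNA.

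The 4 libraries are told apart in the table only by a number after each cell barcode, called the suffix here, and no label ties a suffix to a sample. Values are therefore given for each suffix on its own, with no comparison of genotype or treatment, no replicate error and no p-value. Of 5664 barcodes, 5456 were kept, and the suffixes held 1174, 1251, 1625 and 1406 cells with 7644436, 8327726, 9932649 and 8550371 UMIs (unique molecular identifiers, each standing for 1 captured molecule). Median UMIs per cell were between 5315 and 6435, and 15 barcode sequences occurred under more than 1 suffix. Hif1a, the targeted gene, had 26.5 to 38.5 CPM (the UMIs of a gene per 1000000 UMIs of the same cells), and a 3′ count does not check a deletion elsewhere in the gene. Among markers of other cells, the T and NK list summed to 0.201 to 2.04 CPM with Cd3e, Cd3g, Cd8a, Cd4, Ncr1 and Gzma at 0, and the erythroid list summed to 6.97 to 11.0 CPM. In every suffix, the cells low in cycle genes held fewer UMIs than the cycling cells described below.

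The gene models show what the 3′ ends of these genes look like. In the GENCODE annotation of GRCm38, 68 of the 69 genes were found, 55 of them on chromosome 13, 10 on chromosome 3, 2 on chromosome 11 and 1 on chromosome 6. A histone stem-loop, a run of 16 bases with a stem of 6 paired bases, was found in the annotated transcript of 45 genes, and 25 of these shared 1 loop. The 14 bases before the loop held a median of 7 adenines, with a range of 3 to 13, and 3 genes held 10 or more. The following 30-base stretches end with the stem-loop, with both arms of the stem in capitals. They show the most counted gene, Hist1h2ap, beside Hist1h2ao with the same 30 bases, the next gene by adenines, Hist1h2ae, and the 3 other stem-loop genes with a mean of at least 20 CPM. Both Hist1h2ap and Hist1h2ao have a run of 12 adenines directly before the loop, and only Hist1h4i among those shown has a different stem. With the same 30 bases, Hist1h2ao had 10 UMIs in kept cells, against 4180 for Hist1h2ap. A link between the run of adenines and the count was not tested.
Hist1h2ap, chr13:21833029-21833058, minus strand: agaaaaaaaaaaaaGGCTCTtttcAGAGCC
Hist1h2ao, chr13:21810884-21810913, plus strand: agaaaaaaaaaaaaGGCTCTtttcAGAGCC
Hist1h2ae, chr13:23570668-23570697, minus strand: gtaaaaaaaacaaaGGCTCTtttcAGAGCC
Hist1h1c, chr13:23739498-23739527, plus strand: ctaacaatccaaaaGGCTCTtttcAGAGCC
Hist1h4i, chr13:22040966-22040995, minus strand: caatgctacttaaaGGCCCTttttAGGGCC
Hist3h2a, chr11:58955158-58955187, plus strand: ttacagacaccaaaGGCTCTtttcAGAGCC

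The annotated ends of the most counted genes fell into separate kinds. Hist1h2ap (chr13:21833026-21833507, minus strand) is annotated as a short transcript of 482 bases that stops 3 bases after the loop, with no AATAAA, the common poly(A) signal, after the stop codon. Hist1h2bc (chr13:23684199-23692908, plus strand) has 2 exons and 742 bases after the stop codon, with 1 AATAAA and no stem-loop in the spliced transcript. Hist1h1c (chr13:23738808-23740367, plus strand) runs 840 bases past its loop to an AATAAA 20 bases from the end. Hist3h2a (chr11:58954685-58956830, plus strand) runs 1643 bases past its loop to an AATAAA 28 bases from the end, and overlaps Trim17 on the same strand and Gm44313 on the other, and 29.8% of its 100-base windows also occur in Trim17. Hist1h4i (chr13:22040636-22041362, minus strand) runs 330 bases past its loop with no AATAAA. Among all members, the 31 with a stem-loop and no AATAAA held 50.3% of the histone UMIs, the 14 with both held 24.6%, the 5 with AATAAA alone held 16.5% and the 17 with neither held 8.10%, while 2 genes could not be classed for lack of an annotated stop codon or gene model. The gene models of the 17 with neither end from 0 to 48 bases after the stop codon. They leave little or no sequence to search, so neither signal can be called absent from these genes. The models of the 31 genes with a stem-loop alone run from 3 bases past the loop, in Hist1h2ap, to 1153 in Hist1h1e. Where such a model stops close to its loop, a later AATAAA cannot be called absent either. Hist1h2ap alone held 4180 of the 7307 UMIs of these 31 genes. Of the 100-base windows of Hist1h2ap, 92.2% occur in another annotated transcript as well, the last one included, and the sources used here do not give how reads from such copies were assigned, so its count may hold reads of copies or lack some.

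Histone transcripts were a small share of the counted RNA, and a handful of genes carried most of them. The 69 genes summed to 14528 UMIs of 34455182 in kept cells, or 0.0422%. A UMI was seen for 62 genes, while 7 genes (Hist1h1t, Hist1h2aa, Hist1h2ah, Hist1h2ba, Hist1h2bq, Hist1h2br and Hist1h4m) had none, below a limit of 3 counts that corresponds to 0.302 to 0.392 CPM in a suffix. In Hist1h4m, Hist1h2bq and Hist1h2ah, 100, 100 and 97.5% of the 100-base windows at the 3′ end also occur in other transcripts. A lack of UMIs need not mean a low level there. This share was 0% in Hist1h1t and Hist1h2aa, 0.498% in Hist1h2br and 38.8% in Hist1h2ba, and ranged from 0 to 100% among H3 genes. A further 23 genes averaged under 1 CPM over the suffixes, 28 lay from 1 to under 5 CPM and 6 from 5 to under 20 CPM. The 5 genes at 20 CPM or more, Hist1h2ap, Hist1h2bc, Hist1h1c, Hist1h4i and Hist3h2a, held 64.8% of the histone UMIs, and the top 2 alone held 44.4%. By type, H2A genes held 43.1% of the histone UMIs, H2B genes 22.3%, H1 genes 17.7%, H4 genes 12.7% and H3 genes 4.21%, and no H3 gene averaged 5 CPM. The 11 genes with a mean of at least 5 CPM are called measured here, as are 8244 genes of the whole table. The other 58 passed no such minimum and are described by sums.

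**Figure D1:**
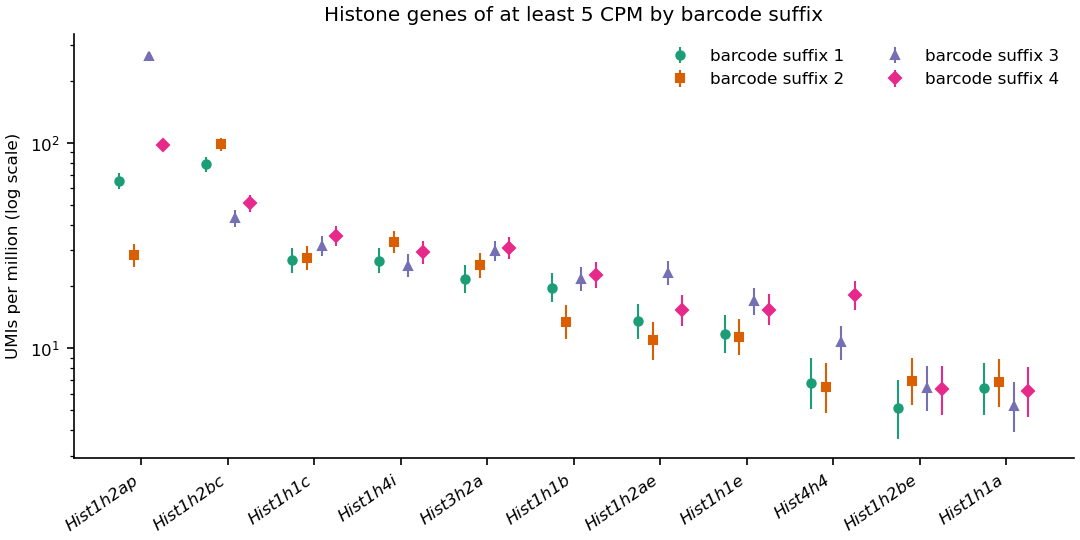
Level of the 11 measured histone genes in cells of each barcode suffix, in UMIs per 1000000 on a log axis, with 1 point per suffix and exact 95% Poisson intervals. Hist1h2ap spreads from 28.3 to 263 CPM, while Hist1h1c, Hist1h4i and Hist3h2a keep their 4 points close together.

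Hist1h2ap, an H2A gene, had 65.1, 28.3, 263 and 97.9 CPM in suffixes 1, 2, 3 and 4. It was thus 9.27-fold higher in suffix 3 than in suffix 2. Hist1h2bc, an H2B gene, went the other way round, with 78.5, 98.1, 42.8 and 50.6 CPM, a span of 2.29-fold with suffix 2 highest. The linker histone gene Hist1h1c had 26.8, 27.5, 31.4 and 35.2 CPM. The H4 gene Hist1h4i had 26.7, 33.0, 25.3 and 29.2 CPM, and the H2A gene Hist3h2a had 21.8, 25.3, 29.8 and 30.9 CPM. These 3 genes therefore differed little from suffix to suffix. In all, 5 of 11 measured histone genes had a highest suffix at least 1.5-fold above the lowest on the (CPM + 1) scale, against 38.4% of all measured genes, a share close to theirs. In cells high in both S and G2/M genes, described below, it was 10 of 11 (background 50.9%). A spread as large as that of Hist1h2ap was reached by 47 of 8244 genes. The summed histone level was 364, 342, 557 and 394 CPM in suffixes 1 to 4, and without Hist1h2ap and Hist1h2bc it was 221, 215, 251 and 245 CPM. The plot of levels by suffix shows the 2 genes with their opposite order.

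The share of cycling cells also differed between suffixes, and the histone genes were therefore read within classes of cells. Each cell was thinned to 2000 UMIs, and UMIs of 40 S phase genes and 50 G2/M genes, none of them a histone gene, were counted. A cell was called high for a list from 7 S or 8 G2/M UMIs, the 75th percentile of cells, and low in both at 3 or fewer S and 4 or fewer G2/M UMIs. This gave 688 cells with S high only, 722 high in both, 637 with G2/M high only and 2162 low in both. Another 114 cells were too shallow, and the rest were intermediate. The classes are ranges of a score: 474 cells lay within 1 UMI of the S limit and 426 within 1 UMI of the G2/M limit. Cells low in both made up 20.7, 25.3, 54.8 and 50.6% of suffixes 1, 2, 3 and 4. Median UMIs per cell were 8114 with S high only, 8628 high in both, 7265 with G2/M high only and 4535 low in both, and the median mitochondrial share was between 2.65% and 2.73% in all 4 classes. The part of these depth differences in the results below was not tested beyond the thinned shares given with them.

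Captured histone transcripts were most frequent in cells with high G2/M genes and not in cells with high S genes alone. The histone sum in suffixes 1 to 4 was 209, 220, 287 and 187 CPM in cells with S high only. It was 442, 468, 1747 and 911 CPM in cells high in both, and 701, 557, 1465 and 888 CPM in cells with G2/M high only, against 244, 228, 195 and 173 CPM in cells low in both. Cells with S high only thus lay below cells low in both in suffixes 1 and 2 and above them in suffixes 3 and 4, with intervals apart in suffix 3 (258.4 to 318.8 against 181.8 to 208.3 CPM), and both G2/M classes lay above cells low in both in every suffix. As a median over suffixes, the log2 ratio to cells low in both was 0.03 with S high only, 1.71 high in both and 1.94 with G2/M high only. The value for cells high in both was 1.03 without suffix 3 or suffix 4 and 2.39 without suffix 1 or suffix 2. With Hist1h2ap left out of the sum, the 3 class ratios were -0.05, 1.32 and 1.60. A cell class counts as higher or lower for a gene below where it differed at least 1.5-fold on the (CPM + 1) scale in the same direction in every suffix, which is a rule of size and no test.

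**Figure D2:**
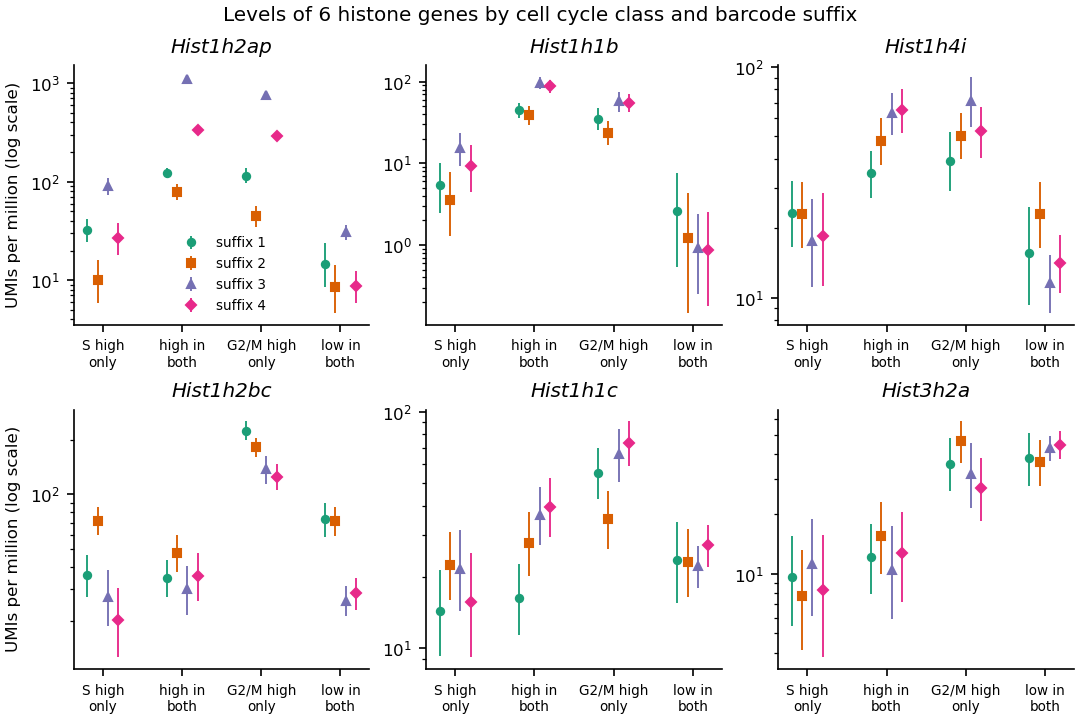
Level of Hist1h2ap, Hist1h1b, Hist1h4i, Hist1h2bc, Hist1h1c and Hist3h2a in the 4 cell cycle classes, in UMIs per 1000000 on a log axis. Each suffix has 1 point with an exact 95% Poisson interval. Hist1h2ap peaks in cells high in both, Hist1h2bc and Hist1h1c peak in cells with G2/M high only, and Hist3h2a is lowest in both classes with high S genes.

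Hist1h2ap was highest in cells high in both lists in all 4 suffixes. It had 32.4, 10.1, 89.9 and 26.8 CPM with S high only in suffixes 1 to 4. In cells high in both it had 123, 78.8, 1097 and 332 CPM, and with G2/M high only 115, 44.4, 759 and 292 CPM, against 14.8, 8.51, 30.8 and 8.66 CPM in cells low in both. All 4 values of either G2/M class lay above all 4 values of cells low in both. Its median log2 ratio to cells low in both was 4.09 in cells high in both and 3.73 with G2/M high only, and its ratio with S high only did not reach the fold rule in every suffix. A UMI of Hist1h2ap was seen in 17.3% of cells with S high only, 50.6% of cells high in both, 35.5% with G2/M high only and 8.23% of cells low in both. In cells thinned to 2000 UMIs, these shares were 5.38, 29.4, 20.1 and 3.98% in the same order. The share in cells low in both serves only as a reference here. Free RNA can give UMIs in cells that do not express a gene, and its part in this share was not tested. The difference of the suffixes stayed within the class high in both, where the spread of Hist1h2ap was 13.8-fold on the (CPM + 1) scale and was reached by 26 of 8244 genes.

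Hist1h2bc, the second gene by level, followed G2/M genes without S genes. It had 35.9, 71.7, 27.3 and 20.3 CPM with S high only and 34.5, 47.8, 30.1 and 35.6 CPM in cells high in both. With G2/M high only it had 224, 182, 137 and 125 CPM, against 72.9, 71.1, 25.9 and 28.6 CPM in cells low in both. Each suffix had its highest value with G2/M high only, and no other class came near it. The median log2 ratio to cells low in both was -0.18 in cells high in both and 1.85 with G2/M high only. Set against cells high in both, a comparison chosen after seeing the data, cells with G2/M high only had a log2 ratio of 2.03. A UMI was seen in 17.01% of cells with S high only, 15.5% high in both, 45.2% with G2/M high only and 9.99% low in both, and the thinned shares were 6.69, 5.96, 23.9 and 4.81%.

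Hist1h1c, which codes for a linker histone, was also highest with G2/M high only in all 4 suffixes. It had 14.4, 22.5, 21.7 and 15.7 CPM with S high only and 16.3, 27.8, 36.4 and 39.5 CPM high in both. With G2/M high only it had 55.2, 35.1, 65.9 and 73.7 CPM, against 23.4, 23.1, 22.2 and 27.1 CPM low in both. The log2 ratio of 1.31 with G2/M high only does not count as higher, since suffix 2 stayed under 1.5-fold. Hist1h4i, an H4 gene, had 23.4, 23.1, 17.7 and 18.5 CPM with S high only. In cells high in both it had 34.5, 47.8, 63.0 and 64.8 CPM and with G2/M high only 39.3, 50.4, 71.2 and 52.5 CPM, against 15.6, 23.1, 11.6 and 14.2 CPM low in both. It was higher in both G2/M classes, with log2 ratios of 1.61 and 1.55, and which of these classes led differed by suffix.

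Hist3h2a was the 1 measured histone gene counted as lower than in cells low in both, and this held for both classes with high S genes. It had 9.59, 7.71, 11.2 and 8.30 CPM with S high only and 12.1, 15.5, 10.5 and 12.7 CPM in cells high in both. With G2/M high only it had 35.9, 46.4, 31.9 and 27.1 CPM, against 38.2, 36.5, 43.0 and 44.8 CPM in cells low in both. The 4 values with high S genes lay below the 4 values low in both in each of these classes, with log2 ratios of -2.00 with S high only and -1.66 high in both. With G2/M high only the ratio was -0.25 and did not count, while against cells high in both it was 1.504. A UMI was seen in 6.98% of cells with S high only, 9.42% high in both, 20.9% with G2/M high only and 17.7% low in both, and the thinned shares were 2.18, 1.94, 6.12 and 9.81%. The order of the last 2 classes thus turned round with thinning. None of the last windows of Hist3h2a, at the end that a 3′ method reads, was shared with Trim17 or another annotated transcript.

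Counted over the measured histone genes, 2 of 11 were higher with S high only (background 6.31% of all measured genes) and 1 was lower (background 3.58%). In cells high in both, 7 were higher (background 8.1%) and 1 was lower (background 5.6%), and with G2/M high only 7 were higher (background 4.67%) and none lower (background 2.61%). The median log2 ratio of the 11 genes was 0.40 with S high only, 1.60 high in both and 1.55 with G2/M high only, against -0.04, -0.04 and 0.03 for all measured genes. Between the G2/M classes, 2 of 11 were higher with G2/M high only than high in both (background 0.983%), namely Hist1h2bc and Hist3h2a, and none was lower (background 2.17%). The higher genes with S high only were the linker histone genes Hist1h1b and Hist1h1a, with log2 ratios of 1.75 and 1.44, but no gene kept that call with 5 CPM added in place of 1, or at a 2-fold limit.

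The other measured genes are named here after their values were seen. Hist1h1b had 5.39, 3.56, 15.3 and 9.23 CPM with S high only. It had 44.8, 38.7, 96.6 and 87.8 CPM in cells high in both and 35.1, 23.9, 57.4 and 55.1 CPM with G2/M high only, against 2.60, 1.22, 0.925 and 0.866 CPM in cells low in both. It had the largest log2 ratio of the 11 genes, 4.87 in cells high in both. Hist1h1a, Hist1h2ae, Hist1h2be and Hist1h1e were higher in cells high in both, with log2 ratios of 3.18, 2.72, 1.60 and 1.48, and all but Hist1h1e were also higher with G2/M high only. Hist4h4 was counted as neither, with a log2 ratio of 0.54 in cells high in both. The 58 genes under 5 CPM, taken as a sum, had log2 ratios of 0.83 with S high only, 2.30 high in both and 2.11 with G2/M high only. The H3 genes, none of which was measured alone, summed to 13.2, 16.6, 18.5 and 18.4 CPM with S high only. They summed to 26.6, 34.2, 59.5 and 32.4 CPM in cells high in both and 29.2, 31.2, 29.8 and 38.1 CPM with G2/M high only, against 13.01, 4.26, 6.94 and 4.33 CPM in cells low in both. These sums rest on between 7 and 85 UMIs each.

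**Figure D3:**
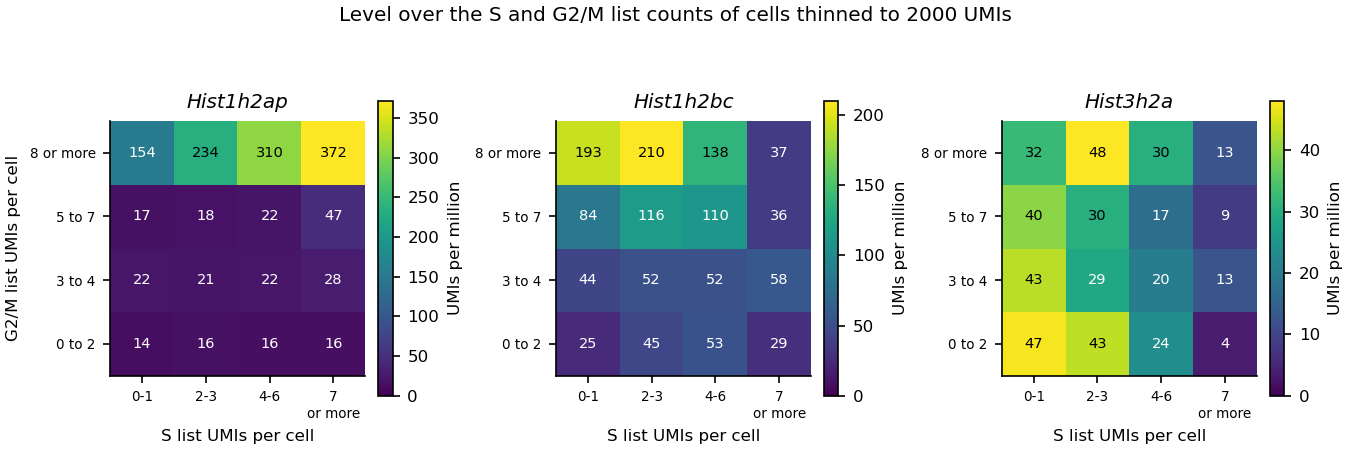
Level of Hist1h2ap, Hist1h2bc and Hist3h2a over cells binned by their S list UMIs (horizontal) and G2/M list UMIs (vertical) after thinning to 2000 UMIs, all suffixes together. The printed number and the colour give UMIs per 1000000, with a colour scale of its own for each gene. Hist1h2ap reaches 372 CPM at the top right, Hist1h2bc reaches 210 CPM at the top with few S UMIs, and Hist3h2a has 3.94 CPM at the bottom right.

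Finer bins, which keep the class limits among their edges, show how levels were spread within the classes. From 8 G2/M UMIs upward, Hist1h2ap had 154, 234, 310 and 372 CPM in cells with 0 to 1, 2 to 3, 4 to 6 and 7 or more S UMIs. In all bins with fewer G2/M UMIs it had 14.4 to 47.2 CPM, whatever the S count. Hist1h2bc had 193, 210, 138 and 37.0 CPM in the same 4 bins of high G2/M cells, so that its lowest value stood where that of Hist1h2ap was highest. The cells of all suffixes are pooled in these bins, and suffixes contribute unequally to them.

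**Figure D4:**
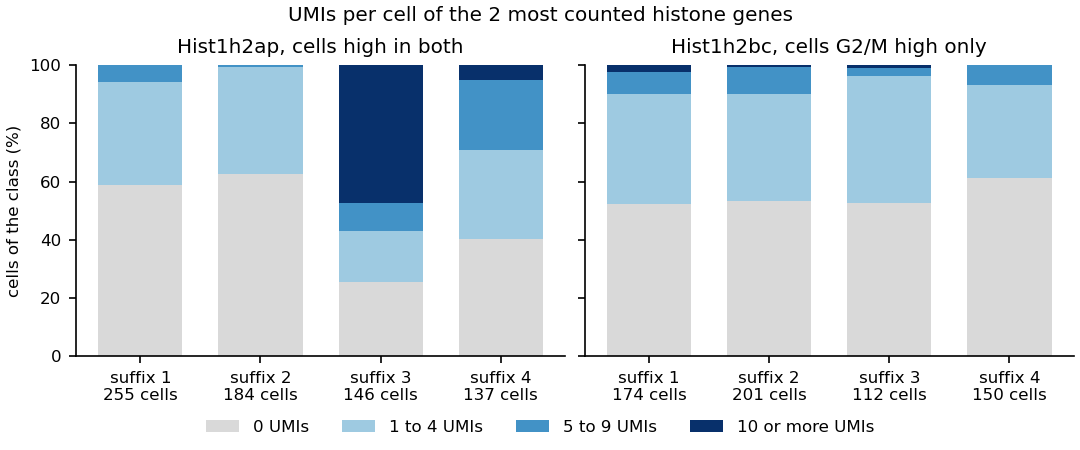
Share of cells by number of UMIs of a gene per cell, for Hist1h2ap in cells high in both and Hist1h2bc in cells with G2/M high only, for each suffix. For Hist1h2ap, 47.3% of the suffix 3 cells hold 10 or more UMIs, against none in suffixes 1 and 2.

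The UMIs of Hist1h2ap were concentrated in few cells. Its 4180 UMIs came from 1004 cells, up to 58 in 1 cell, and of those in the 4 classes 58.7% lay in cells high in both. In that class, 58.8, 62.5, 25.3 and 40.2% of cells in suffixes 1, 2, 3 and 4 had no UMI of the gene. The median cell of the class held 0, 0, 8 and 2 UMIs. At least 10 UMIs, a count chosen after seeing the data, were held by 0 of 255, 0 of 184, 69 of 146 and 7 of 137 cells, or 0, 0, 47.3 and 5.11%. The highest cell had 8, 6, 58 and 17 UMIs. The difference of suffix 3 therefore lay in many cells with high counts and not in a few extreme ones. Hist1h2bc in cells with G2/M high only was spread more evenly: 52.3, 53.2, 52.7 and 61.3% of cells had no UMI, and 9.77, 9.95, 3.57 and 6.67% had 5 or more. The cells high in both differed in type between suffixes: the share in the neutrophil-like cluster was 0.392, 2.17, 17.8 and 11.0%. In cells high in both that belonged to no named cluster, Hist1h2ap had 129, 80.7, 1030 and 318 CPM, so that the order of the suffixes was the same there.

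Over the 16 points of suffix and cycle class, levels of the measured genes were also set against each other, as a description with no test. The points share libraries and cycle state. Hist1h2ap correlated with Hist1h2ae at r = 0.957, with Hist1h1b at 0.904 and with Hist1h4i at 0.804, but with Hist1h2bc at 0.143 and with Hist3h2a at -0.184. The lowest pair was Hist3h2a with Hist1h1a, at -0.469. Of 4704 genes at 20 CPM or more, those closest to Hist1h2ap were Fam133b at 0.886, Racgap1 at 0.883, Ctcf at 0.883, Incenp at 0.880 and Smc4 at 0.867, of which Ctcf and Smc4 belong to the G2/M list. Those closest to Hist1h2bc were Sltm at 0.897, Vbp1 at 0.895, Cwc15 at 0.888, Bud31 at 0.887 and Rnf5 at 0.885.

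Genes that make, process or carry histones were read in the same classes. Of the genes listed as replication-independent histone genes, 10 were measured. Of these, 1 was higher with S high only (6.31% of all measured genes), 4 high in both (8.1%) and 4 with G2/M high only (4.67%). The linker histone gene H1f0 was lower with S high only, with a log2 ratio of -1.32 (background 3.58%). H3f3a and H3f3b, which code for histone H3.3, averaged 2639 and 1932 CPM and were counted as neither. H2afz, the H2A.Z gene, averaged 2146 CPM and was higher in all 3 classes, with log2 ratios of 1.13, 1.88 and 1.73. Cenpa, the histone H3 of centromeres, had a log2 ratio of 2.54 in cells high in both and 4.43 with G2/M high only. H2afx, the variant marked at DNA breaks, had 1.91 and 2.54 in these classes, and H2afv had 1.27 and 1.41.

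Of 20 measured genes for histone mRNA processing, 2 were higher with S high only, 3 high in both and 1 with G2/M high only, counts near the 6.31, 8.1 and 4.67% of all measured genes. Slbp, which binds the stem-loop, averaged 224 CPM and was higher in all 3, with log2 ratios of 1.61, 1.94 and 1.02. Eri1, an exonuclease that trims histone mRNA ends, had 1.25 in cells high in both, and Casp8ap2, a protein of the histone locus body, had 1.23 with S high only and 1.13 high in both. The poly(A) polymerase gene Papola, Lsm1 and the cap-binding gene Ncbp1 were counted as neither, with log2 ratios of 0.16, -0.07 and 1.06 in cells high in both.

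Of 22 histone chaperone genes, 13 were higher with S high only, 13 high in both and 7 with G2/M high only, against 6.31, 8.1 and 4.67% of all measured genes. Asf1b, a carrier of H3 and H4, had log2 ratios of 3.62, 4.52 and 3.70 in these classes, and the CAF-1 subunit genes Chaf1a and Chaf1b had 2.97 and 2.34 with S high only and 2.78 and 2.65 high in both. Set and Nap1l1 had 1.22 and 1.07 in cells high in both, and Npm1, the most abundant of the list at 1454 CPM, was counted as neither. Of 10 genes that drive histone transcription, 5 were higher with S high only, 6 high in both and 2 with G2/M high only, beside the same background. The cyclin E genes Ccne1 and Ccne2 had 3.08 and 3.66 with S high only, and E2f1 had 2.32. Ccna2, the cyclin A2 gene, had 5.26 in cells high in both, Cdk2 had 0.91 there, and Yy1 was counted as neither. The list medians with S high only were 0.28 for processing, 0.94 for chaperones and 1.18 for transcription.

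Promoter windows from 250 bases before to 50 after the start, from RefSeq on GRCm38.p6, matched 61 of the 69 genes. Hist1h2ap and Hist1h2bc, the most counted genes, were not matched, so the motif shares leave them out. Motifs were searched as exact letters on both strands, and none of them contains another. TATAAA was found in 35 windows (57.4%, against 14.2% of all 27025 windows of the same length) and CCAAT in 52 (85.2%, against 37.9%). CCAAT was in every window of an H1, H2A, H2B or H3 gene and in 3 of 12 H4 windows. The octamer ATTTGCAT was found in 13 windows (21.3%, against 1.75%), in 7 of 17 windows of H2A genes and 6 of 16 of H2B genes. Some H2A and H2B genes lie side by side on opposite strands, and their windows overlap. Hist1h2ah (chr13:22035594-22035893) and Hist1h2bk (chr13:22035571-22035870) are such a pair. The same site can thus count for both genes, and the motif counts are not counts of separate sites. The windows of 2 H2A genes with different behaviour in the cycle are shown, with each match in capitals, in either direction. The window of Hist1h2ae, higher in both G2/M classes, holds 1 TATAAA, 2 CCAAT and 1 octamer. That of Hist3h2a, lower in cells with high S genes, holds 2 CCAAT, 1 octamer and no TATAAA. The TATAAA of Hist1h2ae reads in the reverse direction, as TTTATA. The Hist1h2ae window also overlaps the start of Hist1h2bg (chr13:23571396, plus strand), and which gene the match serves was not tested. No motif was tested against the behaviour in the cycle.
Hist1h2ae, chr13:23571171-23571470, minus strand: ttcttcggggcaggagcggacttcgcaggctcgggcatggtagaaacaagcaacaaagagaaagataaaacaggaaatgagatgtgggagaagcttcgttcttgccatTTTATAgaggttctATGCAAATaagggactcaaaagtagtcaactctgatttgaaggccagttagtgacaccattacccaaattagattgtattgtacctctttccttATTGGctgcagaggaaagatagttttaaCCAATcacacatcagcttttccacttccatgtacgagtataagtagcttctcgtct
Hist3h2a, chr11:58954435-58954734, plus strand: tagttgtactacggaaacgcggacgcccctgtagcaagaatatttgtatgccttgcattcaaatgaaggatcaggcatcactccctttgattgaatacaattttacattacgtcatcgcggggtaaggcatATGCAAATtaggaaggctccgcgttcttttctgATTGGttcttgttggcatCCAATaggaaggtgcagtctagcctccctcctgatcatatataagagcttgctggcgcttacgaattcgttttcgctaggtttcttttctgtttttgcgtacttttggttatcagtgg

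Cells were also grouped by clusters named from marker genes, with the histone genes left out of the clustering. Clusters 3 and 12 were granulocyte precursor-like (638 cells, with 5 and 12 of the precursor markers raised), cluster 9 was neutrophil-like (372 cells, 14 markers) and cluster 2 was monocyte-like (483 cells, 14 markers), with the macrophage gene Apoe leading the last and the eosinophil and basophil genes Prg2 and Hdc among the leading genes of cluster 3. The remaining clusters were not named. Most cycling cells fell in unnamed clusters, which the cycle genes themselves shaped, and histone levels differed between these clusters. Cluster 5, led by Ube2c, Nusap1 and Top2a among non-histone genes, consisted of 55.2% cells high in both and 40.3% with G2/M high only. Hist1h2ap had 628.7 CPM there and was its leading gene by fold. Cluster 6, led by the replication genes Ung and Rrm2, consisted of 45.5% cells high in both and 47.5% with S high only, and Hist1h2ap had 87.2 CPM there. Cluster 10, led by the mitotic genes Ccnb2, Cenpa and Cdc20, consisted of 59.8% cells with G2/M high only, and Hist1h2ap had 25.9 CPM. Hist1h2bc had 47.2, 13.3 and 225.7 CPM in clusters 5, 6 and 10, so that the order of clusters 5 and 10 was opposite for these genes. These 3 clusters held 35.7, 27.8 and 10.3% of all cells high in both and 29.5, 1.26 and 31.2% of all cells with G2/M high only. Both classes were thus mixtures, and within G2/M high only the 2 large clusters, 5 and 10, differed in the level of Hist1h2ap. All suffixes are pooled in the cluster values: cluster 5 held 118, 97, 122 and 130 cells of suffixes 1 to 4 and cluster 10 held 136, 138, 32 and 27, and the part of this mix in the values was not tested. Precursor-like cells numbered 227, 320, 53 and 38 in suffixes 1 to 4, neutrophil-like cells 9, 19, 196 and 148, and monocyte-like cells 1, 9, 253 and 220. A stage was read only in suffixes with at least 30 of its cells, and a cycle class within it can hold fewer, such as the 22 precursor-like cells low in both of suffix 4. Cells low in both cycle lists made up 41.7% of precursor-like, 43.6% of neutrophil-like and 81.0% of monocyte-like cells, so values within that class stand beside the totals. Cells high in both made up 7.05, 12.4 and 0% of the same stages.

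**Figure D5:**
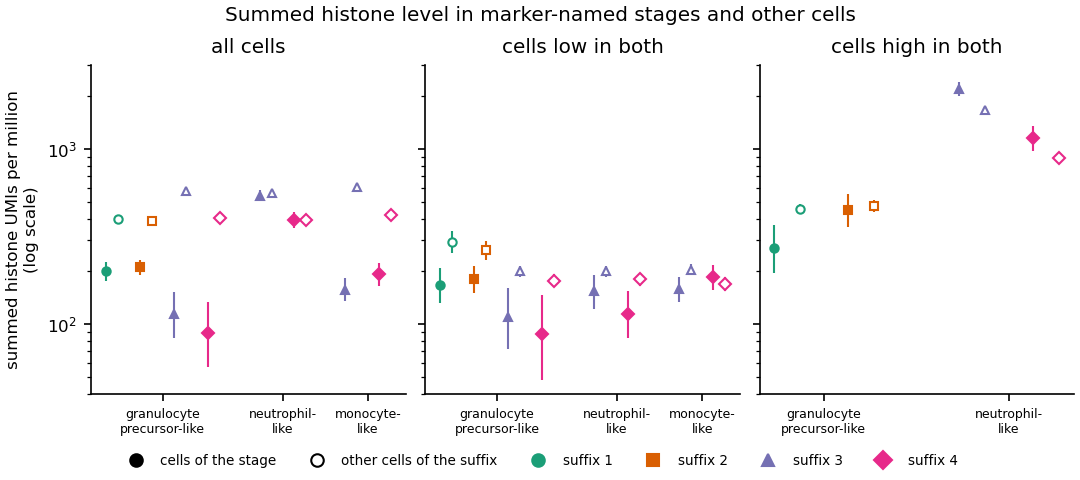
Summed histone level in marker-named stages (filled) and in that suffix's other cells (open), in UMIs per 1000000 on a log axis with exact 95% Poisson intervals, for all cells, cells low in both cycle lists and cells high in both. Precursor-like cells lie below the other cells in all 4 suffixes, both over all cells and within cells low in both. Neutrophil-like cells lie beside the others over all cells, below them low in both and above them high in both, and monocyte-like cells lie below the others over all cells and, within cells low in both, only in suffix 3.

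Granulocyte precursor-like cells had fewer captured histone transcripts than the other cells of their suffix. Their histone sum was 200, 211, 115 and 89.3 CPM in suffixes 1 to 4, against 400, 386, 576 and 404 CPM in the other cells. Within cells low in both it was 168, 180, 110 and 87.8 CPM, against 295, 263, 200 and 177 CPM. The groups were apart in each suffix in both readings, and the median log2 ratio was -1.58 over all cells, or -2.16 without suffix 1 or suffix 2 and -0.99 without suffix 3 or suffix 4. Lower levels were counted for 7 of 11 measured genes (background 3.82%) and higher ones for none (background 0.57%). The count of lower genes was 4 within cells low in both, 3 with stages taken from the marker UMIs of single cells and 3 at a 2-fold limit. These counts have no share over all measured genes beside them and cannot be read against a background. The median log2 ratio of the 11 genes was -1.297, against -0.14 for all measured genes. Hist1h2ap had 24.5, 13.8, 12.4 and 3.72 CPM in precursor-like cells, against 73.9, 33.3, 273 and 101 CPM in the other cells. Hist1h2bc had 43.0, 52.6, 9.96 and 11.2 CPM, against 86.1, 113.5, 44.2 and 51.9 CPM. Over all suffixes, clusters 3 and 12 held 22 and 46 UMIs of Hist1h2ap and 114 and 62 of Hist1h2bc. The precursor-like values of both genes in suffixes 3 and 4, with 53 and 38 cells, thus rest on few UMIs. Hist3h2a had 23.7, 23.2, 27.4 and 22.3 CPM, against 21.4, 26.1, 29.9 and 31.2 CPM, and thus stayed near the other cells where Hist1h2ap and Hist1h2bc did not. With stages from marker UMIs the ratio of the sum was -0.16. Only suffixes 1 and 2 held 30 such cells, and the cluster ratios there were -0.99 and -0.87. The stage joins unlike clusters: with all suffixes pooled, the sum was 157.6 CPM in cluster 3 and 263 CPM in cluster 12. In suffixes 3 and 4, cluster 3 gave 51 and 37 cells and cluster 12 gave 2 and 1, so the values there describe cluster 3. Low sums were not particular to this stage, since the unnamed clusters ranged from 146.5 CPM in cluster 11 to 1350 CPM in cluster 5.

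Neutrophil-like cells showed no steady direction in the histone sum. It was 540 and 393 CPM in suffixes 3 and 4, against 560 and 394 CPM in the other cells, and 154 and 114 CPM within cells low in both, against 200 and 180 CPM. The log2 ratio over all cells was -0.03, and it turned with the settings, to -0.63 at Leiden resolution 0.5, 0.21 with TMM scaling, 0.41 without marked doublets and 0.43 with clusters made without cycle genes. At resolution 0.5 suffixes 1 and 2 also entered, with 68 and 99 neutrophil-like cells, so that value covers other suffixes than the main one. Under scaling to the total, the median of all measured genes was -0.30 in this comparison. Hist1h2bc had 24.9 and 27.8 CPM, against 45.6 and 53.5 CPM in the other cells, and was among the 3 of 11 genes counted as lower (background 17.3%), with Hist1h4i and Hist1h2ae. None was counted as higher (background 4.52%), and with TMM scaling 2 were higher and 1 lower, while without suffix 4 the count of lower genes was 6. The shares of all measured genes are not given for these 2 settings. Hist1h2ap had 322 and 130 CPM, against 253 and 93.9 CPM. In the few neutrophil-like cells high in both, 26 in suffix 3 and 15 in suffix 4, the sum was 2201 and 1149 CPM, against 1667 and 884 CPM in other cells of that class. In these cells Hist1h2ap had 1516 and 480 CPM, against 1024 and 316 CPM. Reading the stages within this class was chosen after seeing the data.

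Monocyte-like cells had a sum of 158 and 192 CPM in suffixes 3 and 4, against 606 and 418 CPM in the other cells. Within cells low in both the values were 158 and 185 CPM, against 204 and 170 CPM, so that the difference was no longer the same way in both suffixes. Lower levels were counted for 8 of 11 genes (background 15.5%) and a higher level for 1, Hist3h2a (background 11%). The count of lower genes was 3 within cells low in both and 2 with stages from marker UMIs, where the log2 ratio of the sum was -0.64, against -1.53 with clusters. For these 2 counts no share over all measured genes is given. Hist3h2a had 43.1 and 64.5 CPM, against 28.2 and 26.8 CPM in the other cells, and within cells low in both 46.5 and 67.5 CPM, against 42.1 and 38.4 CPM. Its call was lost with 5 CPM added, TMM scaling, a 2-fold limit, marker UMIs, clusters made without cycle genes, no cell filter, marked doublets removed and within cells low in both. Hist1h2ap within cells low in both had 31.0 and 7.95 CPM, against 30.7 and 8.86 CPM, so that monocyte-like and other cells lay close together there.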

How the data were processed

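Whole-number UMI counts per gene symbol and cell barcode were deposited by the authors in 1 table. Reads were processed with Cell Ranger 1.3 against mm10, per the submitters' processing notes, which also name Seurat 2.3.4, while the series design text has Seurat 1.4. The sources used here do not give the gene annotation. Barcodes under 500 UMIs or above 10% mitochondrial UMIs were dropped, 208 of 5664. Members and lists were chosen with earlier results of these data known.

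UMIs were summed per suffix and class and scaled to CPM, and ratios were taken as log2 of (CPM + 1) where both sides held 30 cells or more, with the median over suffixes as the value. Intervals are exact Poisson at 95% and cover counting error only. The labels give 1 library a group and the suffixes no group, so no test was made. Clustering used the 2000 most variable non-histone genes, 30 principal components, 15 neighbours and Leiden at resolution 1. A cluster was named where at least 3 markers of a list were 2-fold higher at 20 CPM or more. That list also had to have the most such markers and the most markers, at least 1, among the 10 leading genes by fold. Scrublet marked 24 of 5456 cells (0.44%), too few for a caller that has worked, so doublets were not removed. Histone genes averaging 20 CPM or more are named with their values, and from each list the 3 genes of highest level and the 3 others of largest ratio in cells high in both. Transcript ends come from GENCODE M21 and promoters from RefSeq. The tools were Python 3.11.15, numpy 2.4.6, scipy 1.17.1, pandas 2.3.3, scanpy 1.11.5, leidenalg 0.10.2 and matplotlib 3.10.9, and the counting rule was tested on simulated data. Alternatives changed thinning, scaling, pseudocount, filters, fold limit, clustering and the suffixes used.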

Additional observations from a re-analysis of the deposited data

How the results depend on the processing

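Ratios are medians over suffixes, on the log2 scale of the histone sum, and counts are of members higher or lower. The shares of all genes given above belong to the main rule. None is given for the other settings, so the counts under them cannot be read against a background. Leaving out 1 suffix gave sums of -0.05 to 0.11 with S high only, 1.03 to 2.39 high in both, 1.52 to 2.35 with G2/M high only, -2.16 to -0.99 in precursor-like, -0.05 to -0.00 in neutrophil-like and -1.94 to -1.12 in monocyte-like cells. Members higher with S high only numbered 2 to 3, those higher in neutrophil-like cells 0 to 1 and those lower there 3 to 6, and list genes lower in cells high in both 0 to 1.

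With S high only, the sum was 0.49 with phase calls in place of the classes and -0.077 without marked doublets. Members higher there numbered 4 with phase calls, 5 with no minimum level, 1 each with thinning to 1000 UMIs, no cell filter or no marked doublets, and 0 with 5 CPM added or a 2-fold limit, where list genes higher numbered 12, against 21. In cells high in both, the sum was 1.59 at 1000 UMIs, members higher numbered 21 with no minimum and list genes higher 17 at 2-fold, against 26. With G2/M high only, the sum was 1.53 at 1000 UMIs and 1.83 with no cell filter, and members higher numbered 22 with no minimum.

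In precursor-like cells, the sum was -0.16 with marker UMIs of single cells, -0.81 within cells low in both, -0.83 with no cell filter, -1.09 without marked doublets and -0.92 with clusters made without cycle genes. Suffixes 3 and 4 held 21 and 22 of these cells with marker UMIs, and 6 and 3 without cycle genes. Both values thus rest on suffixes 1 and 2, where the main ratios were -0.99 and -0.87, and -0.92 lies between these. Members lower numbered 3, 4, 15 and 3 with marker UMIs, within cells low in both, with no minimum and at 2-fold. In neutrophil-like cells, the sum was -0.63 at Leiden resolution 0.5, 0.30 with marker UMIs, -0.52 within cells low in both, 0.21 with TMM, 0.066 with no cell filter, 0.41 without marked doublets and 0.43 without cycle genes. The value at resolution 0.5 rests on 4 suffixes, with 68, 99, 192 and 141 cells, and the main value on suffixes 3 and 4 alone. Members higher numbered 1 with no cell filter and 2 each with marker UMIs, TMM, no marked doublets, no minimum or no cycle genes, and members lower 1 with TMM, 8 with no minimum and 1 at 2-fold. In monocyte-like cells, the sum was -0.64 with marker UMIs and -0.12 within cells low in both. Members higher numbered 0 under each of these and with 5 CPM added, TMM, no cell filter, no marked doublets, 2-fold or no cycle genes, and members lower 2 with marker UMIs, 3 within cells low in both and 31 with no minimum.

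Single members turned round in 3 cases: Hist1h2bc in precursor-like cells to 0.39 with marker UMIs, Hist1h1b in them to 1.11 within cells low in both, and Hist1h2bc in neutrophil-like cells to 0.14 there. The cause was not tested. The sum with TMM was 341, 586 and 407 CPM in suffixes 1, 3 and 4. Taken within the classes S high only, high in both, G2/M high only and low in both, it was 209, 442, 701 and 244 CPM in suffix 1, 220, 468, 557 and 228 CPM in suffix 2, 287, 1747, 1465 and 195 CPM in suffix 3, and 187, 911, 888 and 173 CPM in suffix 4. Phase calls give no class high in both, and resolution 0.5 named no precursor-like or monocyte-like cluster. No paired analysis was possible because each group holds 1 library and no barcode suffix is tied to a sample. Members under 5 CPM are too shallow to read singly.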

Other observations

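The highest level of Hist3h2a in any cluster was in the unnamed cluster 13, 37 cells led by the interferon-response genes Ifit3, Irf7 and Isg15, of which 18 belonged to suffix 3 and 19 to suffix 4. Hist3h2a had 147.6 CPM there, from 18 UMIs with an exact 95% Poisson interval of 87.5 to 233.3 CPM, against 53.1 CPM in the monocyte-like cluster 2 and 50.5 CPM in cluster 7. Hist1h2ap had 16.4 CPM in cluster 13, from 2 UMIs. The cluster was singled out after its values were seen, and no test was made.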
